A study of Schizosaccharomyces pombe with 8 samples.

Results

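The comparison is between peroxide-treated cells of a fission yeast strain deleted for pgr1 and peroxide-treated wild type. It rests on the 4 treated libraries of 8 in all: 2 of wild type (strain 972) and 2 of the pgr1 deletion strain, each from cells grown in YE5S, a rich yeast extract medium, and given 1 mM hydrogen peroxide (H2O2) for 30 min. The other 4 libraries are untreated cells of the same strains, 2 of each. They entered the fit and the untreated comparison that is set beside the treated one. Poly(A) RNA was sequenced, and of 5165 genes the 5005 with a normalized count of at least 10 in at least 2 of the 4 treated libraries were tested, which left out 160. The sources used here do not give the strain in which the deletion was made, the marker that replaced the gene, or whether replicate libraries stem from separate cultures. With a single deletion strain, the p-values cover the spread between libraries alone, and how much of that spread is technical is not known.

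The gene pgr1 encodes glutathione reductase, the enzyme that uses NADPH to turn oxidized glutathione back into its reduced form. Glutathione is the abundant small thiol that keeps proteins reduced, feeds glutaredoxins and takes part in the assembly and export of iron-sulfur clusters. Fission yeast meets hydrogen peroxide with a pair of signalling routes. The transcription factor Pap1, which collects in the nucleus when its cysteines are oxidized, drives genes for peroxiredoxin, thioredoxin reductase, catalase and drug efflux, while the kinase Sty1 and its transcription factor Atf1 drive the core stress genes. Without glutathione reductase, reduced glutathione can still be made anew or regenerated through the thioredoxin system.

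The libraries held between 12026222 and 14125543 recovered reads. The pgr1 transcript stood at 7201 and 6792 normalized counts in treated wild type and 92.9 and 105 in the treated mutant. That was a log2 fold change of -6.13 ± 0.21 (standard error), and limma gave adjusted p = 1.33e-07 with Benjamini-Hochberg adjustment over all genes tested; all log2 fold changes below come from this fit of log2(normalized count + 1), with the standard error after the sign ±, n = 2 libraries per group. The genes on both sides of pgr1 were measured too. SPBC17A3.08 was higher in the treated mutant (0.96 ± 0.08, adjusted p = 3.02e-05), with 77.6% of its exon bases opposite another gene, and SPBC17A3.06 was at -0.23 ± 0.16 (adjusted p = 0.25). The wild-type libraries with replicate number 1 stood apart in one respect: cao1 and cbm1, a pair of genes singled out after their values were seen, were at 0 in both of them, whereas treated wild type replicate 2 had 1414 normalized counts of cao1 and 2069 of cbm1. Untreated wild type replicate 2 had 1127 of cao1 and 4325 of cbm1. What sets the replicate numbers of wild type apart was not tested. In the treated mutant cao1 was at 3594 and 3980 and cbm1 at 1535 and 1486. Neither gene is named again below. Both stayed among the genes tested, so the counts and shares over all genes and the plot of all contrasts include them.

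Between the treated strains 2457 genes passed an adjusted p of 0.05, which is 49.1% of the genes tested. Of these, 1332 genes (26.6%) were higher in the mutant and 1125 (22.5%) were lower. The libraries of both strains did not overlap at 3846 genes (76.8%), among them every one of the genes called. Where a called gene is said below not to overlap, this therefore adds nothing to its call. Changes of 2-fold or more were fewer, with 266 genes higher (5.31%) and 128 lower (2.56%), and the median over all genes was 0.00. In bulk RNA, fewer cells with a transcript and less of it per cell cannot be told apart. The counts given below for gene lists are read against these shares, and lists with shares near them, such as iron uptake and the Sty1 pathway, are described by their values. Without replicate 2 of the treated mutant 874 genes were higher and 760 lower. In untreated cells, from 4 other libraries, 1936 genes (38.7%) differed between the strains, 1144 higher (22.9%) and 792 lower (15.8%). Of the genes higher after peroxide 637 were also higher before it, which is 47.8% of the treated list and 55.7% of the untreated one. Of those lower after peroxide 407 were also lower before, 36.2% and 51.4% of these lists. The difference between the strain contrast after and before peroxide, tested as an interaction in the same fit, passed at 1375 genes (27.5%), 606 of them with a higher, more positive contrast after peroxide (12.1%) and 769 with a lower, more negative one (15.4%). The contrasts of all genes before and after treatment spread widely around the diagonal.

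**Figure D1:**
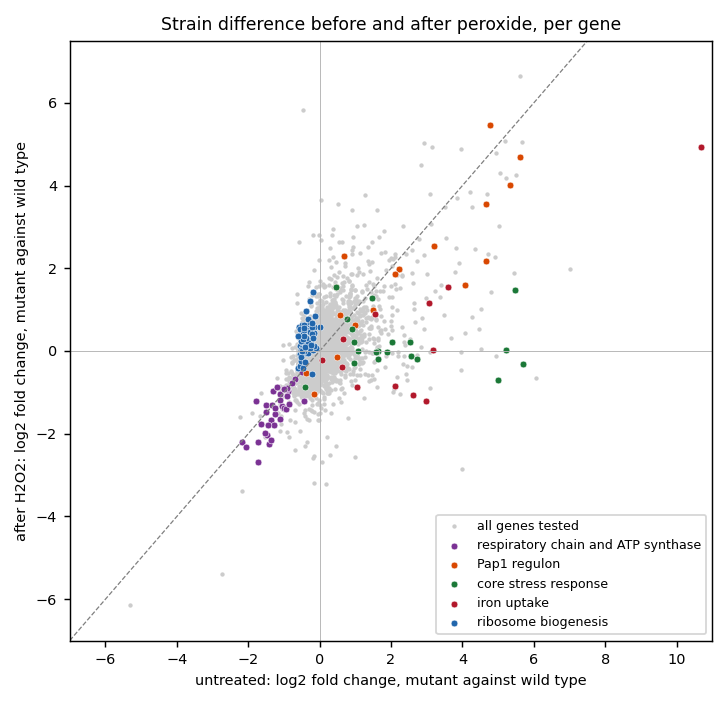
The log2 fold change of the mutant against wild type in untreated cells (horizontal axis) and after peroxide (vertical axis), 1 point per gene tested (5005 genes), with 5 gene lists in colour. Genes on the dashed diagonal had the same contrast in both conditions; 204 genes were called in opposite directions before and after.

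Transcripts of the thioredoxin branch, which passes electrons from NADPH to peroxiredoxins, were higher in the mutant. Of 10 thioredoxin and peroxiredoxin genes tested 9 were higher and 1 was lower after peroxide, with a median log2 fold change of 1.00. The transcript of trr1, thioredoxin reductase, was at 12711 and 13997 normalized counts in treated wild type and 61894 and 69128 in the treated mutant. Its libraries lay far apart, with both mutant libraries above both of wild type (2.29 ± 0.08, adjusted p = 2.15e-07). Before treatment the strains had been closer, at 4834 and 4854 in wild type and 7807 and 7851 in the mutant, and the contrast grew with peroxide (interaction 1.60 ± 0.12, adjusted p = 4.35e-05). Tpx1, the main peroxiredoxin and the sensor that oxidizes Pap1, had transcript at 29943 and 30566 normalized counts in treated wild type and 108934 and 111081 in the treated mutant. Here too the groups did not overlap (1.86 ± 0.09, adjusted p = 1.18e-06), and the untreated strains already differed (2.11 ± 0.09), with a difference between conditions of -0.25 ± 0.13 (adjusted p = 0.215). The gene srx1, for the sulfiredoxin that rescues overoxidized Tpx1, was higher by 1.59 ± 0.14 after peroxide and by 4.07 ± 0.14 before (interaction -2.49 ± 0.20, adjusted p = 7.31e-05). Of the thioredoxins themselves trx1 was higher by 0.79 ± 0.14 and the mitochondrial trx2 by 0.64 ± 0.07. The member that went lower was pmp20, a peroxiredoxin-like gene, which was at 39902 and 44467 normalized counts in treated wild type and 30779 and 29522 in the treated mutant. The mutant libraries were below those of wild type after peroxide (-0.48 ± 0.12, adjusted p = 0.0114) although they had been above them before (0.49 ± 0.12, adjusted p = 0.0136); without treated wild type replicate 2 the value was -0.40 (adjusted p = 0.0655), and without treated mutant replicate 2 it was -0.45 (adjusted p = 0.0747).

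Catalase and superoxide dismutase genes went different ways. The catalase gene ctt1 was at 38141 and 35219.8 normalized counts in treated wild type and 102945 and 113163 in the treated mutant, and again no mutant library came near one of wild type (1.56 ± 0.15, adjusted p = 5.99e-05). In untreated cells the contrast had been 0.45 ± 0.15, so it grew with treatment (interaction 1.11 ± 0.21, adjusted p = 0.0056). The cytosolic copper-zinc superoxide dismutase gene sod1 was higher by 0.88 ± 0.15 (adjusted p = 0.00135), whereas sod2, for the mitochondrial manganese enzyme, was lower, at -0.52 ± 0.06 (adjusted p = 0.000191). The gene gpx1, for a thioredoxin-dependent peroxidase, was at 40857 and 48858 normalized counts in treated wild type and 41764 and 46421 in the treated mutant. Its groups overlapped (-0.02 ± 0.15, adjusted p = 0.924), after standing higher in the untreated mutant (1.57 ± 0.15). Over the 7 genes for superoxide and peroxide detoxification 4 were higher and 2 lower, with a median of 0.88. This list shares tpx1 and pmp20 with the thioredoxin and peroxiredoxin list and ctt1 with the core stress list, so the counts of these lists are not independent. The normalized counts of these redox genes in each library separate trr1, tpx1 and ctt1 from gpx1.

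**Figure D2:**
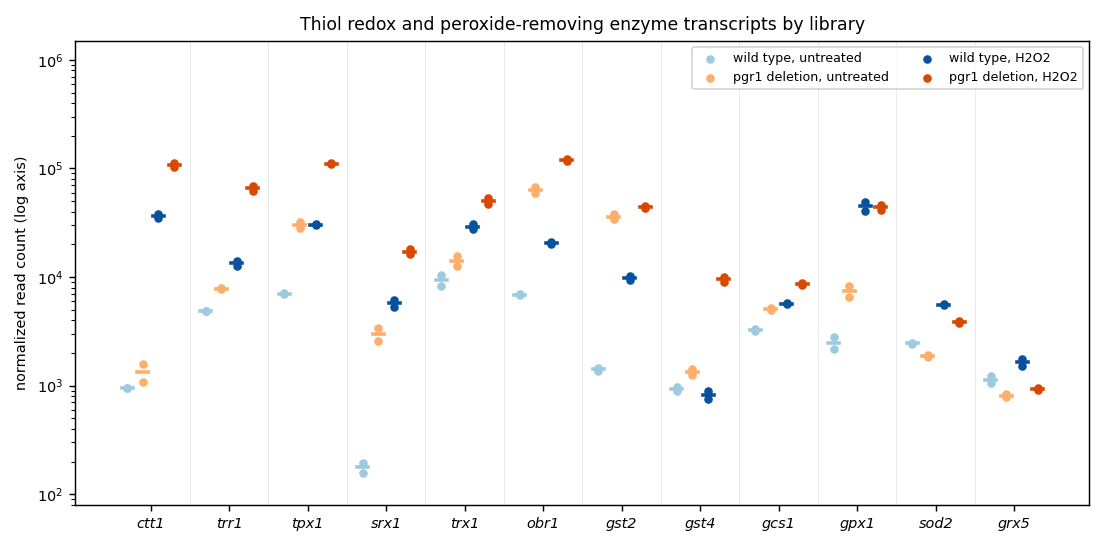
Normalized count (log axis) of redox genes in each of the 8 libraries, coloured by strain and treatment, 1 point per library and a bar at the group's mean. After peroxide trr1 was at 12711 and 13997 in wild type against 61894 and 69128 in the mutant, while gpx1 overlapped between the strains.

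The glutathione genes had a smaller median change and went both ways, with single members that changed more. Of 18 genes of the glutathione and glutaredoxin system 8 were higher and 4 lower, with a median of 0.21. Both genes of glutathione synthesis fixed for this comparison were higher in the treated mutant: gcs1, the catalytic subunit of glutamate-cysteine ligase, by 0.60 ± 0.06 (adjusted p = 9.24e-05), and gsa1, glutathione synthetase, by 0.42 ± 0.07 (adjusted p = 0.000864). Before peroxide their contrasts had been 0.64 ± 0.06 and 0.45 ± 0.07. The highest members were glutathione S-transferase genes, whose products join glutathione to other molecules. The transcript of gst4 was at 886 and 749 normalized counts in treated wild type and 9054 and 10033 in the treated mutant. Both mutant libraries were about an order of magnitude above wild type (3.55 ± 0.10, adjusted p = 7.72e-08). Before peroxide gst4 had been at 981 and 892 in wild type and 1410.5 and 1243 in the mutant, and the interaction was 3.05 ± 0.15 (adjusted p = 4.72e-06). The related gst2 was higher by 2.16 ± 0.09 after peroxide and by 4.66 ± 0.09 before. By contrast gst3 was lower, at -0.44 ± 0.08 (adjusted p = 0.00242), and gst1 was at 0.13 ± 0.25 (adjusted p = 0.707).

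All 3 of the glutaredoxin genes grx3, grx4 and grx5, which encode the monothiol kind that binds iron-sulfur clusters, were lower in the treated mutant. Mitochondrial grx5 stood at 1763 and 1521 normalized counts in treated wild type and 953 and 904 in the treated mutant, with wild type above the mutant in each library (-0.82 ± 0.10, adjusted p = 0.00024). The transcript of grx4, whose product binds the iron regulators Fep1 and Php4, was lower, at -0.68 ± 0.08 (adjusted p = 0.000196), and that of grx3, at -0.45 ± 0.15 (adjusted p = 0.0316). The call on grx3 was lost when any 1 of the 4 treated libraries was left out, with values between -0.49 and -0.41. The dithiol glutaredoxin genes, whose products reduce mixed disulfides with glutathione, gave 0.38 ± 0.16 for grx1 (adjusted p = 0.0819; 0.0352 in the treated libraries alone and 0.0264 with DESeq2) and -0.12 ± 0.08 for grx2 (adjusted p = 0.267).

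Genes under Pap1 stood higher in the mutant than in wild type after peroxide in 14 of 17 cases, with 2 lower and a median of 1.86; 11 of them were at least 2-fold higher. Before peroxide 15 of the 17 had been higher, with a median of 2.11. The transcript of osr1 was at 462 and 452 normalized counts in treated wild type and 19072 and 21259 in the treated mutant, far apart in the treated strains (5.46 ± 0.08, adjusted p = 1.28e-09). A share of its sequence, 16.7%, recurs elsewhere in the transcripts, which makes its count uncertain, and the same holds for SPCC663.08c (4.68 ± 0.09, 17.3% shared). SPBC23G7.10c had unique sequence and was at 1468 and 1665 normalized counts in treated wild type and 24204 and 26644 in the treated mutant, so its groups did not overlap either (4.02 ± 0.17, adjusted p = 4.47e-07). The gene caf5, for a membrane transporter linked to caffeine resistance, was at 1589.8 and 1592 normalized counts in treated wild type and 17498 and 20262 in the treated mutant, with every mutant library more than 10-fold over wild type (3.56 ± 0.11, adjusted p = 1.02e-07). Its untreated contrast had been 4.65 ± 0.11, and the interaction was -1.08 ± 0.16 (adjusted p = 0.00135). For obr1 the contrast was 2.54 ± 0.10 after and 3.21 ± 0.10 before. The transcript of pap1 itself was higher by 0.62 ± 0.07 (adjusted p = 0.000127). The lower members were SPAC5H10.10 (-1.03 ± 0.16, adjusted p = 0.000787) and hba1, whose product helps Pap1 leave the nucleus (-0.52 ± 0.08, adjusted p = 0.000893). The interaction passed at 12 of the 17 genes, with 3 contrasts higher and 9 lower after peroxide.

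Glutathione reductase and thioredoxin reductase both draw on NADPH, much of which comes from the pentose phosphate pathway. Of 13 genes for NADPH supply 6 were higher in the treated mutant and 2 lower (median 0.24), and under quantile normalization 5 were higher and 3 lower (median 0.09). The gene zwf1, for glucose-6-phosphate dehydrogenase, the first step of the pathway, was at 28717 and 33265 normalized counts in treated wild type and 59891 and 64857 in the treated mutant. Both mutant libraries were above both of wild type (1.01 ± 0.10, adjusted p = 5.79e-05), and the contrast had been 1.68 ± 0.10 before peroxide (adjusted p = 0.0074 for the interaction). Transaldolase, tal1, was higher by 1.21 ± 0.08. The mitochondrial NADH kinase gene pos5 was at 271 and 241 normalized counts in treated wild type and 619.7 and 662 in the treated mutant, with no overlap (1.32 ± 0.10, adjusted p = 1.82e-05). Before treatment its contrast was not called (-0.11 ± 0.10, adjusted p = 0.442), and the interaction was 1.43 ± 0.15 (adjusted p = 0.000246). For gnd1, the second dehydrogenase of the pathway, the value was 0.53 ± 0.09 (adjusted p = 0.00181), but 0.23 with an adjusted p of 0.0615 under quantile normalization. The lower members were SPAC3C7.13c (-1.02 ± 0.13) and rki1, ribose-5-phosphate isomerase (-0.49 ± 0.07).

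Genes of sulfur assimilation, which supplies the cysteine of glutathione, went both ways. Of 17 genes 6 were higher and 8 lower, with a median of -0.29. The highest was cys2, of cysteine synthesis, at 712 and 750.1 normalized counts in treated wild type and 3648 and 3975 in the treated mutant. Its groups stood far apart (2.38 ± 0.10, adjusted p = 3.51e-07). The gene sua1, for the ATP sulfurylase that activates sulfate, followed with 1.20 ± 0.21 (adjusted p = 0.00177). Among the lower ones, met6 was at -0.75 ± 0.08 (adjusted p = 8.97e-05) and sam1, which makes S-adenosylmethionine, at -0.68 ± 0.16 (adjusted p = 0.00764; adjusted p = 0.0525 without treated mutant replicate 1).

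The core stress genes, which Sty1 and Atf1 induce under many stresses, stood apart before treatment and were about as close as other genes after it. Their median absolute log2 fold change after peroxide was 0.22, against 0.26 over all genes tested. Of 20 genes 6 were higher and 2 lower after peroxide, with a median of 0.00, against 18 higher and none lower in untreated cells, with a median of 1.64. The interaction passed at 16 of the 20, 15 of them with a smaller contrast after peroxide. The gene hsp9, for a small heat shock protein, was at 5106 and 6254 before treatment in wild type and 28916 and 36307 in the mutant, and after peroxide at 78272 and 96124 normalized counts in treated wild type and 93376 and 108751 in the treated mutant. The untreated strains were separate and the treated ones overlapped (0.22 ± 0.16, adjusted p = 0.301; interaction -2.30 ± 0.23, adjusted p = 0.000215). The stress genes ish1 (-0.13 ± 0.11 after, 2.55 ± 0.11 before) and ddr48 (-0.30 ± 0.16 after, 5.71 ± 0.16 before) gave the same order, though under quantile normalization both were lower after peroxide (-0.48 with adjusted p = 0.00409 and -0.53 with adjusted p = 0.0143). The highest of the list after peroxide were ctt1 and zym1, a metallothionein gene (1.48 ± 0.18, adjusted p = 0.000252). No member was 2-fold lower or more, and the lower ones were lsd90 and sro1. The transcript of lsd90 went from 88.4 and 119 before treatment in wild type and 3048 and 3549 in the mutant to 35143 and 41455 normalized counts in treated wild type and 25431 and 21718 in the treated mutant. The mutant was above wild type before and below it after (-0.70 ± 0.15, adjusted p = 0.00452). For sro1 the value was -0.87 ± 0.28 (adjusted p = 0.0314), and -0.45 (adjusted p = 0.209) without treated wild type replicate 2, with adjusted p = 0.129 or 0.0906 without treated mutant replicate 1 or 2. Under quantile normalization the list had 5 genes higher and 6 lower, with a median of -0.20. Without treated wild type replicate 1 it had 5 higher and 5 lower and without replicate 2 it had 7 and 1, and without treated mutant replicate 1 or 2 it had 5 and 1 (medians from -0.04 to 0.11).

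Components of the Sty1 pathway gave 4 genes higher and 5 lower of 19, with a median of 0.08. The 5 lower became 2 without treated wild type replicate 2, 3 without treated mutant replicate 1 and 2 without treated mutant replicate 2. The kinase gene sty1 was higher by 0.47 ± 0.09 (adjusted p = 0.00315), and so were ptc4, a phosphatase gene (0.81 ± 0.07), mak2, for a histidine kinase that senses peroxide (0.66 ± 0.07), and mak1, named because the count was small (0.22 ± 0.07). Those lower were pcr1, for the partner of Atf1 (-0.72 ± 0.08, adjusted p = 0.000152), wis4, a kinase gene upstream of Sty1 (-0.64 ± 0.12, adjusted p = 0.00201), and, named for the same reason, pyp1, mpr1 and srk1 (-0.40 ± 0.11, -0.27 ± 0.08 and -0.23 ± 0.08). The transcript of atf1 was at 0.06 ± 0.07 (adjusted p = 0.48).

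For chaperone transcripts of the cytosol the shares called after peroxide were near those of all genes tested (26.6% higher and 22.5% lower). Of 18 genes 4 were higher and 3 lower in the treated mutant (median -0.02), where 10 had been higher before (median 0.39), and the interaction passed at 11. Without treated wild type replicate 1 they were 4 higher and none lower (median 0.06), and without replicate 2 they were 2 and 3 (median -0.11). Without treated mutant replicate 1 they were 2 and 2 (median -0.08), without its replicate 2 they were 1 and none (median 0.02), and under quantile normalization the median was -0.14. The Hsp70 gene ssa1 was at 2028 and 1752 before treatment in wild type and 10707 and 8923 in the mutant and then at 77622 and 66197 normalized counts in treated wild type and 69884 and 61287 in the treated mutant. The treated groups overlapped (-0.13 ± 0.13, adjusted p = 0.428) and the interaction was -2.51 ± 0.18 (adjusted p = 3.99e-05). The disaggregase gene hsp104 was at -0.45 ± 0.18 (adjusted p = 0.0675), and -0.64 (adjusted p = 0.0377) under quantile normalization. It was also called lower with DESeq2 (adjusted p = 0.0104), in the treated libraries alone (0.0271) and with the replicate block (0.000752). With edgeR and under the other pseudocounts and filters it stayed uncalled. The small heat shock gene hsp16 was at 0.31 ± 0.11 (adjusted p = 0.0417), but it was at -0.0036 under quantile normalization (adjusted p = 0.983), and the call was also lost with edgeR (adjusted p = 0.0686) and without treated wild type replicate 2 or treated mutant replicate 1 or 2 (adjusted p between 0.140 and 0.207). The gene hsp90 was lower, at -0.43 ± 0.13 (adjusted p = 0.0193; adjusted p = 0.0637, 0.0636 and 0.141 without treated wild type replicate 1, treated mutant replicate 1 and treated mutant replicate 2). Genes of trehalose and glycerol metabolism, both of which protect stressed cells, came to 4 higher and 3 lower of 10, with a median of 0.08 that turned to -0.07 under quantile normalization; 8 had been higher before, and the interaction passed at 9. The median was 0.03 without treated wild type replicate 1 and 0.14 without replicate 2. The dihydroxyacetone kinase gene dak2 was at 258 and 215 normalized counts in treated wild type and 1753 and 2123 in the treated mutant, with the mutant well above wild type (3.03 ± 0.14, adjusted p = 7.1e-07). The other way, gld1, for glycerol dehydrogenase, was lower, at -1.68 ± 0.32, and gut2, for the mitochondrial glycerol-3-phosphate dehydrogenase, at -0.90 ± 0.14 (adjusted p = 0.000934).

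**Figure D3:**
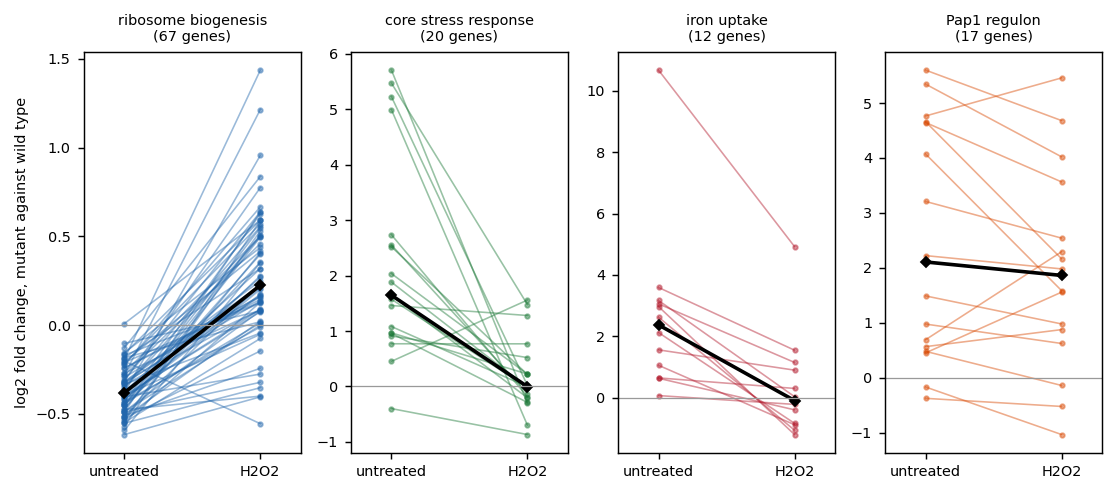
The log2 fold change of the mutant against wild type for each member of 4 gene lists, untreated (left of each panel) and after peroxide (right), 1 line per gene and a black line with diamonds for the median; the vertical scales differ between panels. Ribosome biogenesis went from a median of -0.38 to 0.22, the core stress response from 1.64 to 0.00, iron uptake from 2.37 to -0.09, and the Pap1 regulon from 2.11 to 1.86.

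Respiratory genes were lower in the mutant almost throughout. Of 37 genes for the respiratory chain and ATP synthase 36 were lower after peroxide and none higher, with a median of -1.34, and 27 were at least 2-fold lower. All 37 had been lower in untreated cells (median -1.24). By complex the medians ran from -2.04 for complex III (9 genes lower of 9), which passes electrons to cytochrome c, through -1.53 for complex IV (8 of 8), the cytochrome oxidase, and -1.11 for the ATP synthase (14 of 14), to -0.72 for complex II (3 of 4), the succinate dehydrogenase. The cytochrome c gene cyc1 was at 7157 and 5685 normalized counts in treated wild type and 1389 and 1309 in the treated mutant. Wild type was several-fold higher in each library (-2.24 ± 0.12, adjusted p = 1.34e-06), and the contrast was larger than before peroxide (-1.41 ± 0.12; interaction -0.83 ± 0.16, adjusted p = 0.00623). The complex III subunit gene qcr7 was at 4840.1 and 4812 normalized counts in treated wild type and 1023 and 902 in the treated mutant, with both mutant libraries below wild type (-2.33 ± 0.08 after, -2.05 ± 0.08 before). The lowest of all, qcr9, was at 2478 and 2647 normalized counts in treated wild type and 395 and 394 in the treated mutant (-2.70 ± 0.09), though 81.8% of its exon bases lie opposite another gene and the sources used here do not give the strand setting of the counting, so its count is uncertain. The same applies to rip1, the Rieske iron-sulfur protein (-2.21 ± 0.14). The gene that did not pass, named for that reason, was sdh1, a complex II subunit (-0.32 ± 0.15, adjusted p = 0.115). The interaction passed at 14 of the 37 genes, 11 with a lower value after peroxide.

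**Figure D4:**
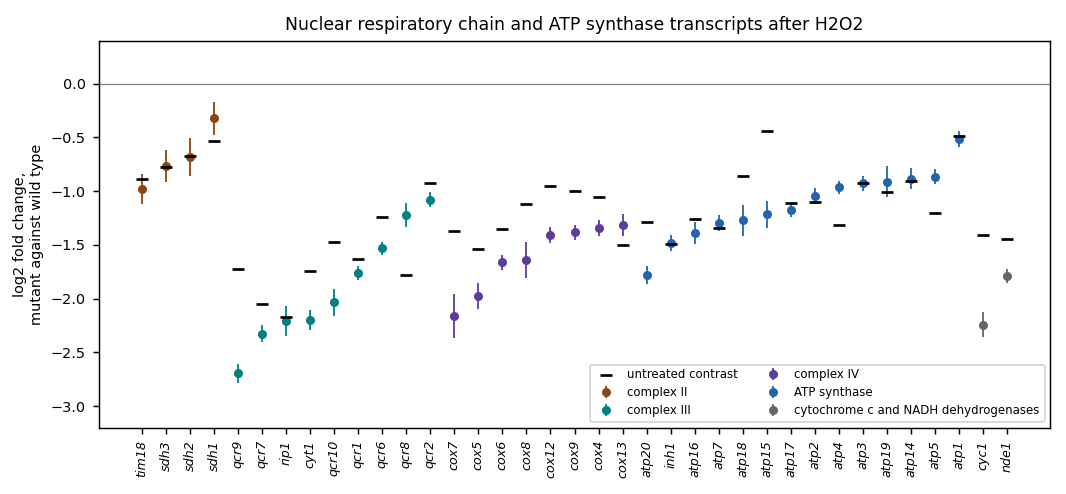
The log2 fold change of the treated mutant against treated wild type for the genes of the respiratory chain and ATP synthase, coloured by complex, with vertical bars for the standard error of the fit and black dashes for the untreated contrast. Every point is below 0, from qcr9 at -2.70 to sdh1 at -0.32.

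Mitochondrial ribosomal protein genes were lower in 27 of 59 cases and higher in 6, with a median of -0.19. Without treated mutant replicate 1 they were lower in 17 and higher in 3, and without its replicate 2 in 19 and 3. The lowest was mrpl16, at 1789.9 and 1876 normalized counts in treated wild type and 555 and 602 in the treated mutant, where no library overlapped (-1.66 ± 0.08, adjusted p = 8.89e-07). The highest were mrpl17 (0.87 ± 0.10) and mrpl7 (0.69 ± 0.10). Among 12 mitochondrial chaperone and protease genes 3 were higher and 5 lower, with the inner membrane protease genes split between yme1 and oma1, which were lower (-0.65 ± 0.08 and -0.71 ± 0.10), and yta12, which was higher (0.41 ± 0.09). The median of these 12 was -0.18, and ranged from -0.35 without treated wild type replicate 2 to -0.00314 without replicate 1, with 1 higher and 4 lower without treated mutant replicate 2.

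The genes of iron uptake went from apart to mixed. After peroxide 3 of 12 were higher and 3 lower in the mutant (median -0.09), where 11 had been higher in untreated cells (median 2.37), and the interaction passed at 9, all with a smaller contrast after. The counts turned on single libraries. Without treated wild type replicate 1, 3 genes were higher and 5 lower (median -0.25). Without treated wild type replicate 2, 5 were higher and none lower (median 0.06), and without treated mutant replicate 1 or 2, 3 were higher and none lower (medians -0.05 and -0.14). These genes also set the wild-type libraries apart: in treated wild type replicate 2 exceeded replicate 1 at 12 of 12 genes, by 1.02 to 4.45 times (median 1.42), against 0.977 to 1.18 times in the treated mutant. In untreated wild type too, replicate 2 was above replicate 1 at fip1, fio1, frp1, str1, str3 and sib2. The counts there in replicates 1 and 2 were 1032 and 2608 for fip1 and 609 and 693 for sib2. The part of this gap in the treated and untreated results was not tested. The surface heme receptor gene shu1 was at 67.1 and 298 normalized counts in treated wild type and 4077 and 4600.5 in the treated mutant, with the mutant above both wild-type libraries by more than 10 times (4.92 ± 0.58, adjusted p = 0.000191). Before peroxide it had been at 0.875 and 2.73 in wild type and 3762 and 4963 in the mutant, a contrast of 10.67 ± 0.58. Transcripts of sib2, of siderophore synthesis, were at 5077 and 7039 normalized counts in treated wild type and 12729.7 and 13790.3 in the treated mutant, again without overlap (1.15 ± 0.14, adjusted p = 0.000251). The ferric reductase gene frp1 was at 4335 and 9018 normalized counts in treated wild type and 2640.3 and 2797 in the treated mutant. Wild type was higher, but its own libraries differed about as much as the strains did (-1.20 ± 0.36, adjusted p = 0.0227), and without treated wild type replicate 2 the value was -0.67 (adjusted p = 0.154). Without treated mutant replicate 1 or 2 the adjusted p of frp1 was 0.0939 or 0.0803. The other called members, named because the counts were small, were sib1, higher (0.90 ± 0.07), and abc3, lower (-0.40 ± 0.12). In untreated cells frp1 had been higher in the mutant (2.97 ± 0.36, adjusted p = 0.000272). The reductive uptake genes fip1 and fio1, an iron permease and its oxidase, were at -1.06 ± 0.51 (adjusted p = 0.116) and -0.84 ± 0.42 (adjusted p = 0.132); without treated wild type replicate 1 they were -1.85 (adjusted p = 0.0143) and -1.41 (adjusted p = 0.0309). The siderophore transporter gene str1 was lower, at -0.88 ± 0.25 (adjusted p = 0.0172), and at -0.70 (adjusted p = 0.108) without treated wild type replicate 2; its adjusted p was 0.0667 or 0.0789 without treated mutant replicate 1 or 2. For str3, a transporter gene of the same family, the value was 1.55 ± 0.61 (adjusted p = 0.0634), and 2.40 (adjusted p = 0.0166) without that library.

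Among the regulators, php4, which represses iron-using genes, was lower in the treated mutant (-0.50 ± 0.11, adjusted p = 0.00539) after being higher before (0.38 ± 0.11), and fep1, the repressor of iron uptake, was at -0.29 ± 0.14 (adjusted p = 0.125; -0.46 and adjusted p = 0.0339 without treated wild type replicate 2). Of 12 genes for iron-using proteins 7 were lower and none higher (median -0.56, the same before and after peroxide). Beside cyc1 they included glt1, glutamate synthase (-1.04 ± 0.29, adjusted p = 0.0155), with 0.105 and 0.0968 as adjusted p without treated wild type replicate 1 and without treated mutant replicate 2. The vacuolar iron transporter gene pcl1 was at -0.23 ± 0.14 (adjusted p = 0.195; -0.44 and adjusted p = 0.0179 without treated wild type replicate 2) after -1.03 ± 0.14 in untreated cells.

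Genes of iron-sulfur cluster assembly went both ways. Of 19 genes 7 were higher and 6 lower after peroxide, with a median of 0.20. That median was 0.10 without treated wild type replicate 1, 0.07 without replicate 2 (5 higher and 7 lower) and 0.13 under quantile normalization. The lowest were isd11, for a partner of the mitochondrial cysteine desulfurase, at 2225 and 2111 normalized counts in treated wild type and 1107 and 1103 in the treated mutant, and atm1, for the mitochondrial exporter, at 2632 and 3042 normalized counts in treated wild type and 1486 and 1505 in the treated mutant. Both were lower in each mutant library (-0.97 ± 0.07 and -0.92 ± 0.11), and atm1 had been higher before peroxide (0.42 ± 0.11, adjusted p = 0.0149). The highest were dre2 and nar1, which act in the cytosolic branch. The transcript of dre2 was at 1586 and 1441 normalized counts in treated wild type and 3374 and 3544 in the treated mutant and that of nar1 at 187 and 188 normalized counts in treated wild type and 378 and 492 in the treated mutant. Neither overlapped between strains (1.19 ± 0.07 and 1.20 ± 0.21), and for both the contrast grew with treatment (0.81 ± 0.10 and 1.49 ± 0.29; adjusted p = 0.000577 and 0.00623).

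Ribosome biogenesis genes, whose products process ribosomal RNA and assemble the subunits, crossed over. In untreated cells 51 of 67 were lower in the mutant and none higher (median -0.38). After peroxide 35 were higher and 6 lower (median 0.22), and the interaction passed at 47, every one with a higher contrast after treatment. The small subunit processing gene enp2 was at 1763 and 2091 before treatment in wild type and 1614 and 1749 in the mutant, and after peroxide at 586 and 578 normalized counts in treated wild type and 1461 and 1704 in the treated mutant. Both treated wild-type libraries were below all of the others (1.44 ± 0.10, adjusted p = 1.1e-05; interaction 1.63 ± 0.15, adjusted p = 0.000125). The related enp1 was higher by 1.21 ± 0.09. The lowest were drs1 (-0.56 ± 0.08) and nop10 (-0.40 ± 0.11), the latter with adjusted p between 0.0569 and 0.0979 when any 1 treated library was left out. Cytosolic ribosomal protein genes gave 6 higher and 13 lower of 136, with a median of -0.11 and values from -0.73 to 0.53. The count of 13 lower became 1 without treated wild type replicate 1 or without 1 of the treated mutant libraries and 20 without treated wild type replicate 2 (medians from -0.17 to -0.02). The 6 ribosome biogenesis genes lower became 3 without treated wild type replicate 1 or treated mutant replicate 2.

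Genes of arginine metabolism and of lysine and leucine synthesis were mostly lower. Of 11 arginine genes 7 were lower and 1 higher after peroxide (median -0.36), against 1 lower and 2 higher before, and the interaction passed at 6. The transcript of arg5, a subunit of carbamoyl-phosphate synthase, was at 6904 and 7446 normalized counts in treated wild type and 3594 and 3447 in the treated mutant, without overlap (-1.03 ± 0.13, adjusted p = 0.000267), after no called difference in untreated cells (-0.10 ± 0.13). The one higher gene was aru1, an arginase gene (0.49 ± 0.10). Of 11 lysine and leucine genes 7 were lower and none higher (median -0.40), where 2 had been lower before. The gene lys3, of the last step of lysine synthesis, was at 14580.3 and 17227 normalized counts in treated wild type and 8729 and 8438 in the treated mutant, again without overlap (-0.88 ± 0.09, adjusted p = 8e-05). Genes that serve as selection markers in this yeast were measured because a marker often replaces a deleted gene. Of 9, 6 were lower and 1 higher, with fewer called without treated mutant replicate 1 or 2. The lowest were arg3, also in the arginine list (-0.92 ± 0.11, adjusted p = 0.000244), and his5 (-0.88 ± 0.10, adjusted p = 0.000118). The gene ura4, named after its values were seen, was at 2885 and 2716 normalized counts in treated wild type. In the treated mutant ura4 was at 2329.8 and 2228 (-0.30 ± 0.08, adjusted p = 0.0178).

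Glycolysis and fermentation genes were higher in 11 of 18 cases and lower in 1, with a median of 0.34 that was 0.15 under quantile normalization (8 higher and 2 lower); 7 were higher without treated mutant replicate 1. The pyruvate decarboxylase gene pdc201 was at 32.4 and 42.1 normalized counts in treated wild type and 203 and 183 in the treated mutant, with no overlap (2.35 ± 0.18, adjusted p = 1.44e-05). The glyceraldehyde-3-phosphate dehydrogenase gene gpd3 gave 3.79 ± 0.21, with 24.5% of its sequence shared with other transcripts. The lower one was adh4, an alcohol dehydrogenase gene (-0.92 ± 0.17). The 7 hexose transporter genes divided into 3 higher, 3 lower and 1 that did not pass, and 1 was lower without treated mutant replicate 2. The ends of that range were ght1 (2.26 ± 0.29, at most 41.3 normalized counts in a treated library) and ght7 (-2.30 ± 0.61, at most 30.1), where ght7 gave adjusted p = 0.0778 without treated wild type replicate 1 and 0.0842 without treated mutant replicate 2.

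Protein and organelle turnover genes were higher by small amounts. Of 35 proteasome genes 23 were higher and none lower (median 0.34), close to the untreated cells (22 higher, median 0.30). The core particle subunit gene pre5 was at 3094 and 3531 normalized counts in treated wild type and 6777 and 7143 in the treated mutant, with the strains separate (1.07 ± 0.08, adjusted p = 1.4e-05), and pre6 was higher by 0.68 ± 0.07. Of 28 autophagy and vacuolar protease genes 16 were higher and 3 lower (median 0.31), with 9 higher without treated wild type replicate 1 and 8 without treated mutant replicate 2. Carboxypeptidase Y, cpy1, was higher by 0.93 ± 0.10 and atg17, of the initiation complex, by 0.80 ± 0.09, while atg22, for a vacuolar amino acid exporter in budding yeast, was lower, at -0.76 ± 0.11 (adjusted p = 0.000701).

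Of 24 DNA repair genes 8 were higher and 1 lower (median 0.18). The DNA glycosylase genes mag1 and mag2, for enzymes that remove alkylated bases, led them. The transcript of mag2 was at 177 and 227 normalized counts in treated wild type and 466 and 537 in the treated mutant, so the mutant stayed above wild type (1.32 ± 0.25, adjusted p = 0.00277), though by less than in untreated cells (3.36 ± 0.25; interaction -2.05 ± 0.36, adjusted p = 0.00362). For mag1 the value was 1.29 ± 0.10. The lower gene was uve1, for a UV damage endonuclease (-0.67 ± 0.07). Of 17 genes of the G1 to S transition 2 were higher and 2 lower: ctp1, which starts resection of DNA breaks, was at 1117 and 1306 normalized counts in treated wild type and 3204 and 3637 in the treated mutant with no overlap (1.50 ± 0.11, adjusted p = 1.18e-05), the cyclin gene cig2 was higher by 0.68 ± 0.13, and mik1, for an inhibitory kinase, and rep2, for an activator of transcription, were lower (-0.72 ± 0.13 and -0.25 ± 0.08). The call on rep2 was lost when any 1 treated library was left out, with adjusted p between 0.0636 and 0.165, and with DESeq2 (0.0768). Of 11 histone genes 1 was higher and 2 lower, and of 12 cell separation genes 4 were lower and none higher, among them agn1, a glucanase gene (-0.78 ± 0.14). The count of cell separation genes lower was 2 without treated wild type replicate 1 or treated mutant replicate 1, and no histone gene was higher when any 1 treated library was left out.

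Genes of nitrogen starvation and sexual development came to 6 higher and 2 lower of 14 (median 0.37, and 0.12 under quantile normalization). Their summed normalized count was 7435 and 9136 in treated wild type and 10132 and 10539 in the treated mutant. The meiotic regulator gene mei2 was at 23.1 and 21.1 normalized counts in treated wild type and 55.0 and 71.5 in the treated mutant, low in both strains but higher in each mutant library (1.47 ± 0.19, adjusted p = 0.0003). The transcription factor gene ste11 was higher by 1.17 ± 0.26, and mfm2, for the M-factor mating pheromone, was lower, at -0.94 ± 0.28 (adjusted p = 0.023). The call on mfm2 was lost with edgeR (adjusted p = 0.0925), in the treated libraries alone (0.0566), and without treated wild type replicate 1 or 2 or treated mutant replicate 1 (0.0522, 0.0940 and 0.146). Of 26 sterol and heme genes 5 were higher and 11 lower (median -0.15), with 7 lower without treated mutant replicate 2. The lowest was erg32, for a sterol desaturase, at 5009 and 7018 normalized counts in treated wild type and 2062 and 2161 in the treated mutant, without overlap (-1.49 ± 0.19, adjusted p = 0.000327), and the highest was hem1, the first enzyme of heme synthesis (0.91 ± 0.08). Of 9 copper and zinc genes 3 were higher and 5 lower, with ctr4, a copper transporter of the cell surface, lower (-0.91 ± 0.20, adjusted p = 0.00487) and ctr6, of the vacuole, higher (0.90 ± 0.15, adjusted p = 0.00148). Of 6 phosphate uptake genes 1 was higher, the transporter gene pho842, at 38.2 and 54.8 normalized counts in treated wild type and 172 and 207 in the treated mutant (2.02 ± 0.22, adjusted p = 0.000127), and 1 lower, pho4 (-0.41 ± 0.09; adjusted p = 0.0554 without treated mutant replicate 1). The medians of all lists are set side by side in the plot of the lists.

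**Figure D5:**
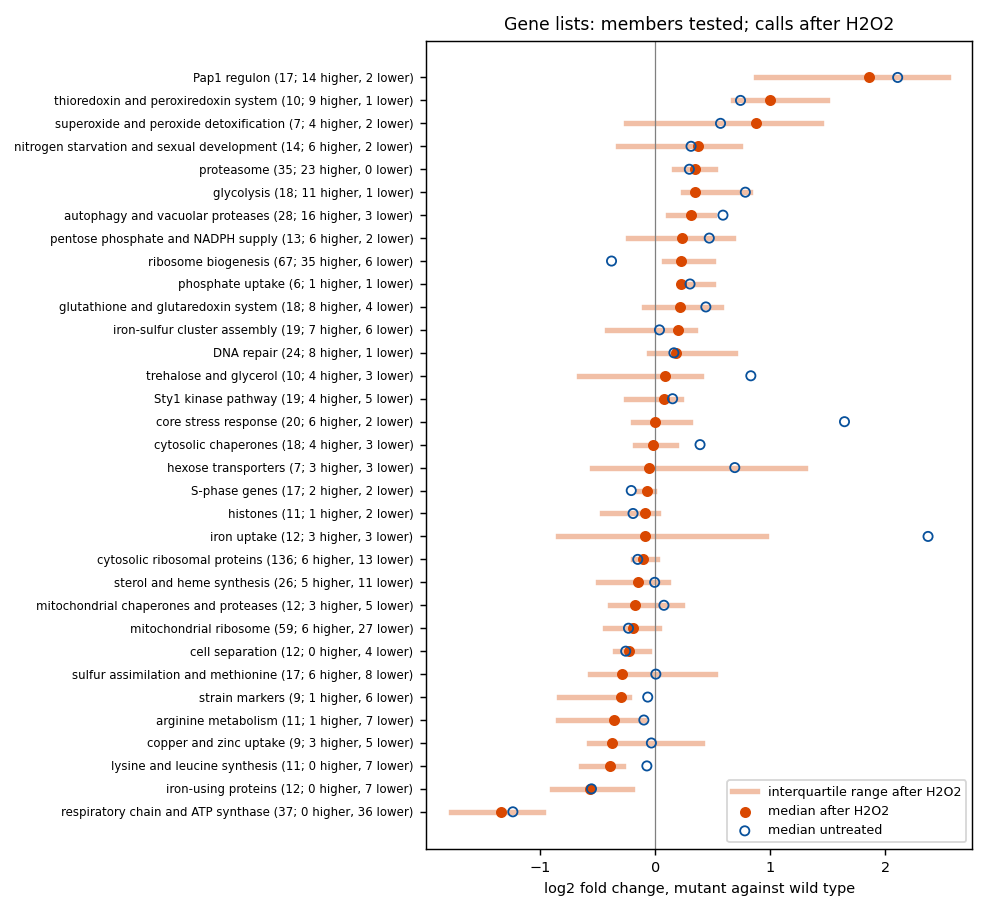
The log2 fold change of the treated mutant against treated wild type summarised over the members of each of 33 gene lists: a filled point for the median, a bar for the interquartile range and an open circle for the median in untreated cells. Pap1 regulon (median 1.86) and respiratory genes (median -1.34) lie at the ends, and the median of all 5005 genes is 0.00.

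Among single genes called, chosen with groups that did not overlap, the highest contrasts after peroxide came from osr1 and the following. SPCC18B5.02c, annotated as a pseudogene, was at 235 and 209.7 normalized counts in treated wild type and 7103 and 7945 in the treated mutant. Both mutant libraries were far above wild type (5.08 ± 0.13, adjusted p = 3.37e-08). The alcohol dehydrogenase gene adh8 was at 1163 and 979 normalized counts in treated wild type and 29453 and 33425 in the treated mutant, with no overlap (4.88 ± 0.14, adjusted p = 7.19e-08). For hhy1, mug108 and mel1, the last an alpha-galactosidase gene, the values were 4.49 ± 0.26, 4.25 ± 0.18 and 4.18 ± 0.28, with 100% of mug108 opposite another gene. SPBPB2B2.08 was at 4.31 ± 0.50, with 4.63 and 3.16 normalized counts in treated wild type and 85.6 and 105 in the treated mutant. Its wild-type counts came from 7 reads in all, near the floor of 3 reads per library. SPAC750.01, with 37.6% of its sequence shared and 22 reads in treated wild type, was at 4.78 ± 0.21. The spore killer family member wtf3, annotated as a pseudogene, had no read in treated wild type and 24.4 and 35.7 normalized counts in the treated mutant. That was at least 9.08-fold higher when wild type is set to 3 reads per library, and 69.9% of the wtf3 sequence is shared.

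The lowest contrasts after pgr1 held several genes that peroxide-treated wild type had at high counts. SPCC70.08c was at 223 and 94.8 before treatment in wild type and 171 and 134 in the mutant, and after peroxide at 4006 and 5093 normalized counts in treated wild type and 746 and 669 in the treated mutant. The untreated strains overlapped and the treated ones did not (-2.68 ± 0.33, adjusted p = 0.000239; interaction -2.73 ± 0.46, adjusted p = 0.00303). The ubiquitin protease gene ubp11 was at 263 and 175 before treatment in wild type and 203 and 182 in the mutant, and after peroxide at 1226 and 1073 normalized counts in treated wild type and 215 and 182 in the treated mutant. Only treated wild type was high (-2.53 ± 0.19, adjusted p = 1.23e-05; interaction -2.37 ± 0.26, adjusted p = 0.000367). The acetyltransferase gene aca1 gave -2.51 ± 0.17, with 86.6% of its exon bases opposite another gene, and SPCC191.06, with at most 159 normalized counts in a treated library, gave -2.40 ± 0.25. A pair of near-identical genes, SPBPB10D8.04c and SPBPB10D8.06c, was lower, at -3.21 ± 0.56 and -3.18 ± 0.28, but reads can be divided among their 4 copies in any way. Summed, the copies were at 6394 and 7232 in treated wild type and 2469 and 2517 in the treated mutant. The gene ftm1 had no read in the treated mutant and 22.0 and 74.8 normalized counts in treated wild type, at least 13.8-fold lower when the mutant is set to 3 reads per library, with 97.6% of its sequence shared.

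Of the 204 genes called in opposite directions before and after peroxide, 102 were lower in the untreated mutant and higher in the treated one, and 102 the reverse, and at all 204 the interaction passed. The 5 with the largest contrasts in both conditions were all of the second kind. SPBC1271.08c was at 242 and 221 before treatment in wild type and 464 and 455 in the mutant, and after peroxide at 4013 and 5238 normalized counts in treated wild type and 817 and 724 in the treated mutant. The mutant was above wild type in untreated cells (0.99 ± 0.13) and below it after peroxide (-2.58 ± 0.13). SPACUNK4.17 was at 385 and 509.6 before treatment in wild type and 2090.1 and 1594 in the mutant, and after peroxide at 64822 and 77313 normalized counts in treated wild type and 35585 and 35729 in the treated mutant. It was among the more abundant transcripts of treated cells, with the strains exchanged in order (2.04 ± 0.16 before, -0.99 ± 0.16 after). SPAC15E1.02c (2.25 ± 0.19 before, -1.05 ± 0.19 after) and SPAC513.02 (2.09 ± 0.07 before, -0.91 ± 0.07 after) had the same order, as did frp1.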

How the data were processed

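Poly(A) RNA of fission yeast was measured in 8 libraries, 2 per group. The submitters' processing notes name the tools FastQC, Trimmomatic, Salmon and DESeq2 and build ASM294v2; the sources used here give neither versions nor the strand setting. The deposited signal, which the authors made for 5165 genes, is a DESeq2-normalized count: reads of the gene over the library's size factor; 1 line names no gene and was left out. Within a tolerance of 0.05 reads, 99.98% to 100% of values per library came out as whole numbers of reads (the recovered reads).

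limma 3.58.1 (R 4.3.3) was fitted to log2(value + 1) of all 8 libraries with 1 mean per group and a trended prior variance (4 residual degrees of freedom), over genes that reached 10 in 2 or more treated libraries. Adding 1 understates the fold change of genes with few reads. Tests were two-sided, with Benjamini-Hochberg adjustment over 5005 genes and calls at 0.05, and the fit was tested on simulated data. Alternatives were other pseudocounts (0.5 and 5), filters (none, and at least 50), quantile normalization, the treated libraries alone, a replicate block, edgeR 4.0.16 and DESeq2 1.42.0 on recovered reads, and leaving out each library.

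Gene names came from a reference of another build, ASM294v3, to which 5131 identifiers matched and 34 did not. The percentages of shared sequence and of opposite exon bases were computed from the exon coordinates and sequences of that build, not of ASM294v2. A gene was held uncertain when at least 5% of its 31-base words recur in other transcripts (178 genes) or over 50% of its exon bases lie opposite another protein-coding gene (575 genes).

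The members, gene lists and tests were chosen with earlier results of these data known. Names that matched another gene were taken out of the lists before fold changes were computed, and pim1 and sxa2 afterwards, because their products do not belong to their lists. Genes named are the 12 highest and 12 lowest called (mean of at least 20 in the higher group, groups not overlapping), the 2 highest and 2 lowest called of each list, the 5 largest opposite calls, the 4 highest and 4 lowest interactions among genes also called after peroxide, and fixed genes; others are marked where named. Of 169 such genes not all are described.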

Additional observations from a re-analysis of the deposited data

Results flagged for a closer look

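The strain contrast differed between treated and untreated cells, tested as an interaction in the limma fit with Benjamini-Hochberg adjustment, at 606 genes with a higher, more positive contrast after peroxide and 769 with a lower, more negative one. The named genes are those with the most extreme interactions of each direction among genes also called between the treated strains, and the largest opposite calls. Below 0 stood shu1 (-5.75), lsd90 (-5.69), SPAPB1A11.03 (-5.03, with most of its exon bases opposite another gene), frp1 (-4.17), SPBC1271.08c (-3.56), SPAC15E1.02c (-3.30), SPACUNK4.17 (-3.03) and SPAC513.02 (-3.00). Untreated wild type had 4 reads of shu1 and 9 of SPAPB1A11.03 in all, so the sizes of both interactions are uncertain. Above 0 stood SPCC576.19c (2.99), gst4 (3.05), the alanine racemase gene alr2 (3.21) and SPCC11E10.09c (3.59, also opposite another gene). The interaction of alr2 came with 121 and 157 normalized counts in treated wild type and 746 and 989 in the treated mutant. The groups hold 2 libraries each, so no library was tested against the others of its group.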

How the results depend on the processing

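No gene called between the treated strains was called in the opposite direction under any of the 17 alternatives. Counts of 1332 higher and 1125 lower became 1243 and 1164 with edgeR, 1192 and 1011 with DESeq2, 1072 and 1245 under quantile normalization, and 1489 and 1301 with the replicate number as a block. The labels do not say what a shared number stands for, and there are only 2 numbers. Deviations of same-numbered libraries correlated from -0.152 to 0.384 between groups. The value was 0.362 between untreated and treated wild type and 0.177 between untreated and treated mutant. Both wild-type libraries with number 1 also had cao1 and cbm1 at 0. The main fit, including the interaction, treats same-numbered libraries as independent, and whether they share a source was not tested. Under the block 8 named genes gained a treated call (hsp9, fip1, fio1, hsp104, ddr48, fep1, grx1 and str3) and none lost one. With 1 library left out, which leaves a lone sample assumed to vary like the other groups, the treated counts ranged from 874 to 1334 higher and from 755 to 1150 lower, the interactions above 0 from 317 to 605, those below 0 from 464 to 798, and the untreated counts from 881 to 1202 higher and from 471 to 850 lower. Quantile normalization gave 980 higher and 1431 lower in untreated cells, and shifted the median of all genes by less than 0.1 in each comparison (to -0.044 treated and -0.095 untreated). Under it the value of hsp16 was -0.003593 (adjusted p = 0.983), the interaction of SPAC750.01 was 1.07 (adjusted p = 0.0256, against -0.17), and the median of trehalose and glycerol genes was -0.07314; the cause was not tested. Of 153 named genes called, 127 passed in all alternatives and 145 in all but the left-out libraries. Low counts limit genes such as ght7, wtf3, ftm1 and SPBPB2B2.08, and in untreated wild type shu1 and SPAPB1A11.03.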
